A study of Mus musculus with 23 samples.

Results

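The epithelial sodium channel and the aldosterone pathway that controls it were followed through 9 genes in 23 colon RNA-seq libraries. These 9, among 55449 genes with counts, were chosen by name from the known pathway, with earlier results of these data known. All mice were male Cdx2Apcf/w animals on the C57BL/6 background, in which Cre recombinase under the *Cdx2* promoter acts on 1 floxed copy of the tumor suppressor *Apc* in the intestinal epithelium while the other copy is wild type. They were 6 to 8 weeks old at the start, received antibiotics in the drinking water, and were then fed a 60% high-fat diet while being gavaged with 1 of 2 bacteria: BF BSHlow, the *Bacteroides fragilis* strain 638R (labelled BF638R bsh-), or BF BSHhigh, the same strain overexpressing a bile salt hydrolase gene (labelled BF638R bsh+). The libraries came from normal colon after 2 weeks (4 BF BSHlow and 4 BF BSHhigh), from colon non-tumor tissues after 12 weeks (4 and 4) and from colon tumor tissues after 12 weeks (4 BF BSHlow and 3 BF BSHhigh). Mice without bacteria, without the diet or without the *Apc* deletion were not among the groups.

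The epithelial sodium channel is the apical pore through which the surface epithelium of the distal colon takes up sodium, and with it water, from the lumen. It is assembled from the α, β and γ subunits encoded by *Scnn1a*, *Scnn1b* and *Scnn1g*, and is activated by proteolytic cleavage, to which the membrane-anchored protease prostasin (*Prss8*) contributes. Aldosterone acts through the mineralocorticoid receptor (*Nr3c2*), and 11β-hydroxysteroid dehydrogenase type 2 (*Hsd11b2*) inactivates glucocorticoids that would otherwise occupy that receptor. The kinase encoded by *Sgk1*, a gene induced by corticosteroids, keeps the channel at the cell surface by phosphorylating the ubiquitin ligase NEDD4-2, and *Sgk2* encodes a related kinase. Sodium that has entered leaves on the basolateral side through the sodium pump, whose β1 subunit is encoded by *Atp1b1*.

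*Scnn1g* (ENSMUSG00000000216.8) lies on chromosome 7 of GRCm38 at 121734479 to 121768475 and *Scnn1b* (ENSMUSG00000030873.9) at 121865038 to 121918514, both on the plus strand, with 96562 bases and 0 protein-coding genes between them. *Scnn1a* (ENSMUSG00000030340.16) is on chromosome 6 at 125320659 to 125344943. Because *Scnn1g* and *Scnn1b* had the largest differences between 2 and 12 weeks and are neighbors, their promoter windows, from 250 bases before to 50 bases after the start site, are shown 5′ to 3′ from RefSeq (GRCm38.p6) with every CG dinucleotide in capitals. The window of *Scnn1g* (chr7:121734229-121734528, plus strand) holds 18 CG dinucleotides, a number reached by 29.7% of 32851 windows of this length, and that of *Scnn1b* (chr7:121864788-121865087, plus strand) holds 10, reached by 43.5%.
Scnn1g: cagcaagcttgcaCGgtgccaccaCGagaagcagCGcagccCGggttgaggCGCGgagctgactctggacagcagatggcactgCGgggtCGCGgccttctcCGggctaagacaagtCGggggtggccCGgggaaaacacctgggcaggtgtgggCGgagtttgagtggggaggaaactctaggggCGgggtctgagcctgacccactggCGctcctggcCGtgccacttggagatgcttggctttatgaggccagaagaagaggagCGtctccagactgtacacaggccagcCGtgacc
Scnn1b: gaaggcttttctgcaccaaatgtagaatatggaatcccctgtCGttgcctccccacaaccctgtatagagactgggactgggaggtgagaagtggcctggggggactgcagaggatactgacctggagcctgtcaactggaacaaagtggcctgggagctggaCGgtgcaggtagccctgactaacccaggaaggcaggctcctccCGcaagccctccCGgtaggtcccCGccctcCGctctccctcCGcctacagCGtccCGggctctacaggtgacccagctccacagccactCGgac

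*Sgk1* is shown as a member known as a direct target of corticosteroid receptors, without a claim that it is the only one. *Scnn1a*, *Sgk2*, *Hsd11b2* and *Prss8* had no window and were not searched. RefSeq windows were matched for 5 of the 9 genes (*Atp1b1*, *Nr3c2*, *Scnn1b*, *Scnn1g* and *Sgk1*), and *Sgk1* has 6 of them. They were searched on both strands for the half-site AGAACA, and for a palindrome made of that half-site, any 3 bases and its reverse complement, in which each arm is also a half-site match. A half-site was found in 19.0% of all windows, and in 3 of the 10 windows of these 5 genes, all of them windows of *Sgk1*. The palindrome was found in 3 of 32851 windows (0.00913%), among them the *Sgk1* window at chr10:21993640-21993939 (plus strand), where the half-sites and the palindrome are in capitals. A match of letters is a description of the window and not a binding site.
Sgk1: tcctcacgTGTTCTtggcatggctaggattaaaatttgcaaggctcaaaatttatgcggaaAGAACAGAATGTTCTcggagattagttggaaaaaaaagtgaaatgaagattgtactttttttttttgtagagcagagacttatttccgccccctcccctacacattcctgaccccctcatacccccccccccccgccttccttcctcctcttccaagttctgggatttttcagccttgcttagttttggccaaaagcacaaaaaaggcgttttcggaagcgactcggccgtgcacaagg

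The libraries held between 12401388 and 17903008 expected counts. Levels are given as CPM, counts divided by the library size after TMM scaling and expressed on the usual CPM scale, and differences as log2 fold changes with their standard error (SE) from the quasi-likelihood test of edgeR. A gene was called where the Benjamini-Hochberg adjusted p over all genes tested was under 0.05 and the log2 fold change was over 1 in size, and "rose" or "fell" is used only for such genes. *Apc* itself was between 8.75 and 28.6 CPM in 7 tumor libraries, against 87.7 to 190 CPM in 8 non-tumor and 67.4 to 137 CPM in 8 normal libraries. The labels number the libraries of a group without saying that each came from its own mouse, so p-values measure the spread between libraries. The 3 columns of BF BSHhigh tumors carry no numbers of their own and are called replicates a, b and c. In bulk tissue, fewer cells of a type and less RNA per cell cannot be told apart.

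**Figure D1:**
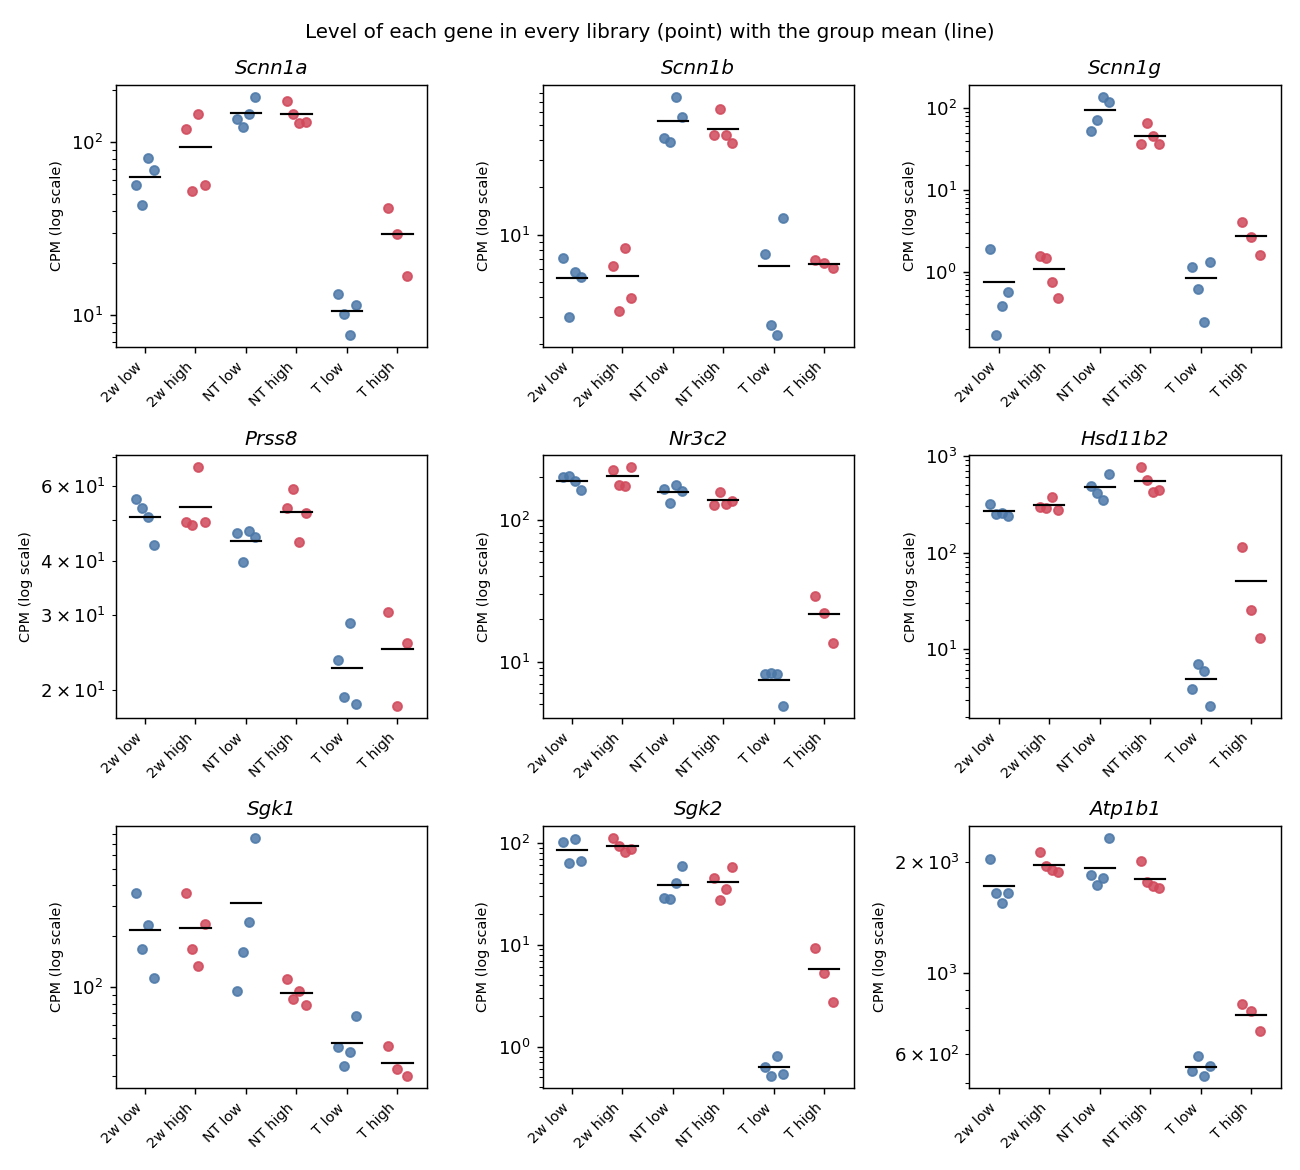
Level of the 9 genes in CPM on a log scale (y axis) in each of 23 libraries (points) with the group mean (line), for normal colon at 2 weeks (2w), non-tumor (NT) and tumor (T) tissues at 12 weeks, in BF BSHlow (blue) and BF BSHhigh (red) mice. All 9 genes are lower in tumors than in non-tumor tissues, and *Scnn1b* and *Scnn1g* are low at 2 weeks, with *Scnn1g* between 0.167 and 1.90 CPM.

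RNA of the γ subunit was nearly absent from the 2-week colon and abundant in the 12-week non-tumor colon. *Scnn1g* was 1.90, 0.167, 0.379 and 0.563 CPM in the 2-week BF BSHlow libraries (2 to 25 counts) and 52.8, 70.9, 137 and 118 CPM in the 12-week BF BSHlow non-tumor libraries. The BF BSHhigh libraries held 1.54, 1.47, 0.743 and 0.481 CPM at 2 weeks and 35.9, 65.8, 46.0 and 36.5 CPM at 12 weeks. Every 12-week library lay far above every 2-week library, with no overlap in either group. *Scnn1g* rose with a log2 fold change of 6.90 (SE 0.54, adjusted p = 2.26e-05) in BF BSHlow mice, a 119-fold difference, and of 5.46 (SE 0.34, adjusted p = 1.23e-05) in BF BSHhigh mice, a 43.9-fold difference.

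The gene of the β subunit rose as well. *Scnn1b* was 7.05, 3.003, 5.78 and 5.35 CPM in 2-week BF BSHlow libraries and 40.9, 38.7, 75.1 and 56.3 CPM at 12 weeks. The BF BSHhigh levels were 6.27, 3.24, 8.24 and 3.93 CPM at 2 weeks and 42.8, 63.1, 42.8 and 38.3 CPM at 12 weeks. The lowest 12-week library was above the highest 2-week library in both groups. The log2 fold change of *Scnn1b* was 3.30 (SE 0.29, adjusted p = 4.17e-05) in BF BSHlow and 3.12 (SE 0.29, adjusted p = 5.27e-05) in BF BSHhigh mice.

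The gene of the α subunit differed least of the 3. *Scnn1a* was 56.4, 43.5, 81.2 and 68.9 CPM at 2 weeks and 136, 122, 145 and 182 CPM at 12 weeks in BF BSHlow mice, where the groups did not overlap and it rose by a log2 fold change of 1.21 (SE 0.19, adjusted p = 0.00106). Its BF BSHhigh levels were 119, 52.4, 144 and 56.4 CPM at 2 weeks and 173, 144, 128 and 131 CPM at 12 weeks. Replicate 3 of the 2-week BF BSHhigh libraries reached into the 12-week range and replicate 1 came near it, and the log2 fold change of 0.64 (SE 0.31, adjusted p = 0.111) was not called.

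Per kb of exon, *Scnn1a* was the highest of the 3 subunits in each library of 4 of the 6 groups. The exceptions were replicate 3 of the 12-week BF BSHlow non-tumor tissues, with 1.31 times as much *Scnn1g*, and replicate 4 of the BF BSHlow tumors, with 1.74 times as much *Scnn1b*. At 2 weeks in BF BSHlow mice, the level per length was 15.1 ± 3.92 CPM per kb for *Scnn1a*, 2.01 ± 0.643 for *Scnn1b* and 0.251 ± 0.261 for *Scnn1g* (SD, n = 4). In 12-week BF BSHlow non-tumor tissues the same values were 35.4 ± 6.25 for *Scnn1a*, 20.04 ± 6.402 for *Scnn1b* and 31.6 ± 13.1 for *Scnn1g*. RNA of the α and γ subunits thus did not differ beyond its spread. In BF BSHlow tumors RNA of the α and β subunits did not either, at 2.58 ± 0.574 CPM per kb for *Scnn1a* and 2.40 ± 1.87 for *Scnn1b* (SD, n = 4). The ratio of *Scnn1g* to *Scnn1b* per length went from a median of 0.0752 (range 0.0489 to 0.237) at 2 weeks to 1.61 (1.14 to 1.84) at 12 weeks in BF BSHlow mice. In BF BSHhigh mice it went from 0.162 (0.0793 to 0.400) to 0.878 (0.738 to 0.945). The ranges of the 12-week BF BSHlow and BF BSHhigh libraries did not overlap, a comparison that was made after the values were seen and not tested.

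**Figure D2:**
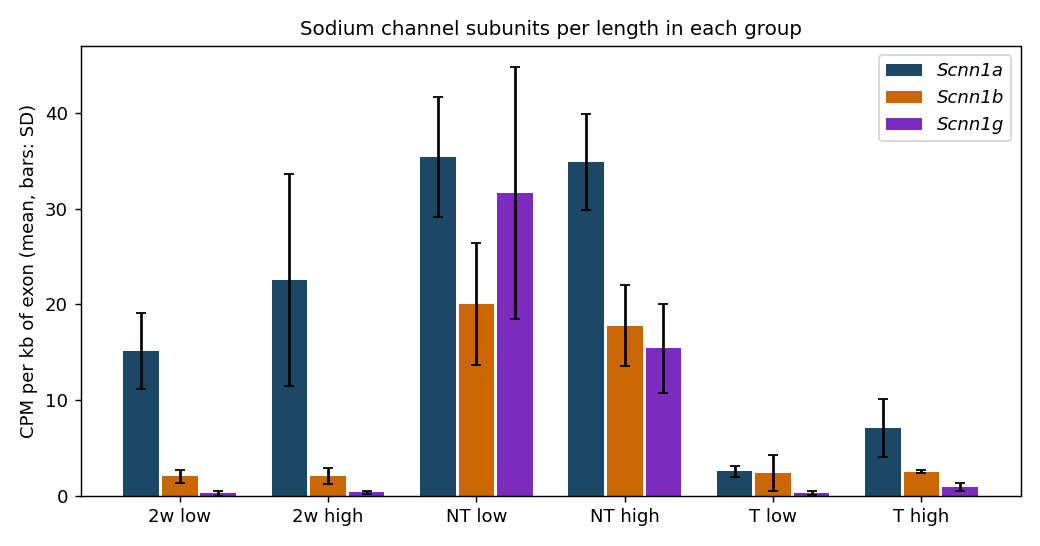
Mean level of *Scnn1a*, *Scnn1b* and *Scnn1g* in CPM per kb of exon (y axis, bars show the SD) in the 6 groups on the x axis, with n = 4 libraries per group and 3 for BF BSHhigh tumors. *Scnn1g* is at 0.251 and 0.354 at 2 weeks, at 31.6 and 15.4 in 12-week non-tumor tissues and at 0.276 and 0.919 in tumors of BF BSHlow and BF BSHhigh mice.

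None of the other 6 genes rose between 2 and 12 weeks. *Sgk2* fell in both groups, by a log2 fold change of -1.14 (SE 0.27, adjusted p = 0.00787) in BF BSHlow and -1.16 (SE 0.21, adjusted p = 0.00136) in BF BSHhigh mice. It was between 63.8 and 109 CPM in the 2-week BF BSHlow libraries and between 27.8 and 59.4 CPM at 12 weeks, without overlap. *Sgk1* fell in BF BSHhigh mice, from 358, 167, 134 and 237 CPM to 111, 85.4, 94.9 and 78.6 CPM (log2 fold change -1.26, SE 0.28, adjusted p = 0.00442), with no overlap.

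In BF BSHlow mice *Sgk1*, whose window with the palindrome is shown above, was 361, 167, 232 and 114 CPM at 2 weeks and 94.7, 162, 243 and 760 CPM at 12 weeks. The 12-week range spanned the 2-week one, with replicate 4 far above the rest, and the log2 fold change was 0.51 (SE 0.60, adjusted p = 0.517). Without that library it was -0.41 (adjusted p = 0.441). The difference between the 2 groups of mice in this change was not called by edgeR (log2 difference -1.79, SE 0.73, adjusted p = 0.628).

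*Hsd11b2*, the gene of the enzyme that shields the mineralocorticoid receptor, passed the adjusted p threshold below the fold limit in both groups. Its log2 fold change was 0.82 (SE 0.19, adjusted p = 0.00646) in BF BSHlow and 0.84 (SE 0.19, adjusted p = 0.00457) in BF BSHhigh mice, and the 12-week libraries (352 to 650 and 423 to 762 CPM) lay above the 2-week libraries (240 to 318 and 276 to 374 CPM). The receptor gene *Nr3c2* had values of -0.27 (adjusted p = 0.0852) and -0.55 (adjusted p = 0.00479), and the second is under the fold limit. *Prss8* had -0.20 (adjusted p = 0.133) and -0.02 (adjusted p = 0.893), and *Atp1b1* had 0.15 (adjusted p = 0.428) and -0.11 (adjusted p = 0.346).

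In all, 3 of the 9 genes rose and 1 fell in BF BSHlow mice, where 15.1% of 14555 genes tested were called higher and 7.59% lower. In BF BSHhigh mice 2 rose and 2 fell, where 15.9% of 14638 genes were called higher and 7.34% lower. Scaling by library size or to 6 epithelial reference genes moved the median of all genes up by 0.22 and 0.34 in BF BSHlow and by 0.30 and 0.45 in BF BSHhigh mice. With these scalings the genes called lower were 812 and 691 in BF BSHlow mice, against 1104 with TMM, and those called higher 2603 and 2918, against 2205. In BF BSHhigh mice 759 and 654 were called lower, against 1074, and 2895 and 3361 higher, against 2334. *Scnn1g* and *Scnn1b* stayed called with both. The values of *Sgk2* went under the fold limit in both groups (-0.79 and -0.73 with the epithelial scaling), as did *Sgk1* in BF BSHhigh mice (-0.85), while *Hsd11b2* was called in both (1.18 and 1.28) and *Scnn1a* in BF BSHhigh mice as well (1.12, adjusted p = 0.00308). The small values of *Prss8* in both groups, of *Nr3c2* in BF BSHlow mice and of *Atp1b1* in BF BSHhigh mice changed sign with the epithelial scaling. Of these, *Prss8* (0.42, adjusted p = 0.00422) and *Atp1b1* (0.31, adjusted p = 0.0399) in BF BSHhigh mice then passed the adjusted p threshold, below the fold limit.

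Markers of position along the colon and of the muscle wall differed between the same libraries. The summed level of 5 posterior HOX genes in the table was between 6.45 and 26.3 CPM in 2-week BF BSHlow and between 6.97 and 94.5 CPM in 2-week BF BSHhigh libraries, against 571 to 812 and 429 to 679 CPM at 12 weeks. *Hoxb13*, a gene of the distal colon, went from 1.501 to 9.22 CPM in 2-week BF BSHlow libraries to 410 to 562 CPM at 12 weeks, and *Hoxd12* was at 0 in 4 of 4 and 3 of 4 libraries at 2 weeks. Of the posterior HOX genes tested, 3 of 3 rose in BF BSHlow and 2 of 3 in BF BSHhigh mice. The 2-week library with the most posterior HOX signal, replicate 3 of BF BSHhigh at 94.5 CPM, had 0.743 CPM of *Scnn1g*, 8.24 CPM of *Scnn1b* and 144 CPM of *Scnn1a*. The other library of that group with high *Scnn1a*, replicate 1 at 119 CPM, had 87.5 CPM of posterior HOX genes, against 11.6 and 6.97 CPM in replicates 2 and 4. It had 1.54 CPM of *Scnn1g*, against 1.47 and 0.481 CPM in replicates 2 and 4. Its *Scnn1b* was 6.27 CPM, against 3.24 and 3.93 CPM.

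The summed level of 5 smooth muscle genes was 42.9 to 157 and 6.54 to 194 CPM at 2 weeks and 1389 to 7009 and 2837 to 3691 CPM at 12 weeks, and 5 of 5 rose in both groups. Of 7 surface colonocyte genes, 3 fell in BF BSHlow and 4 in BF BSHhigh mice, and their sum was 15790 to 27150 and 14860 to 18720 CPM at 2 weeks against 2415 to 5385 and 2736 to 3558 CPM at 12 weeks. The 6 epithelial reference genes summed to 11110 to 14970 CPM at 2 weeks and 7610 to 10080 CPM at 12 weeks. The labels give the tissue as colon with no position, and the part of these differences in those of *Scnn1g*, *Scnn1b* and the other genes was not tested. Time on the diet and with the bacteria, age and how the tissue was taken cannot be told apart in this comparison.

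**Figure D3:**
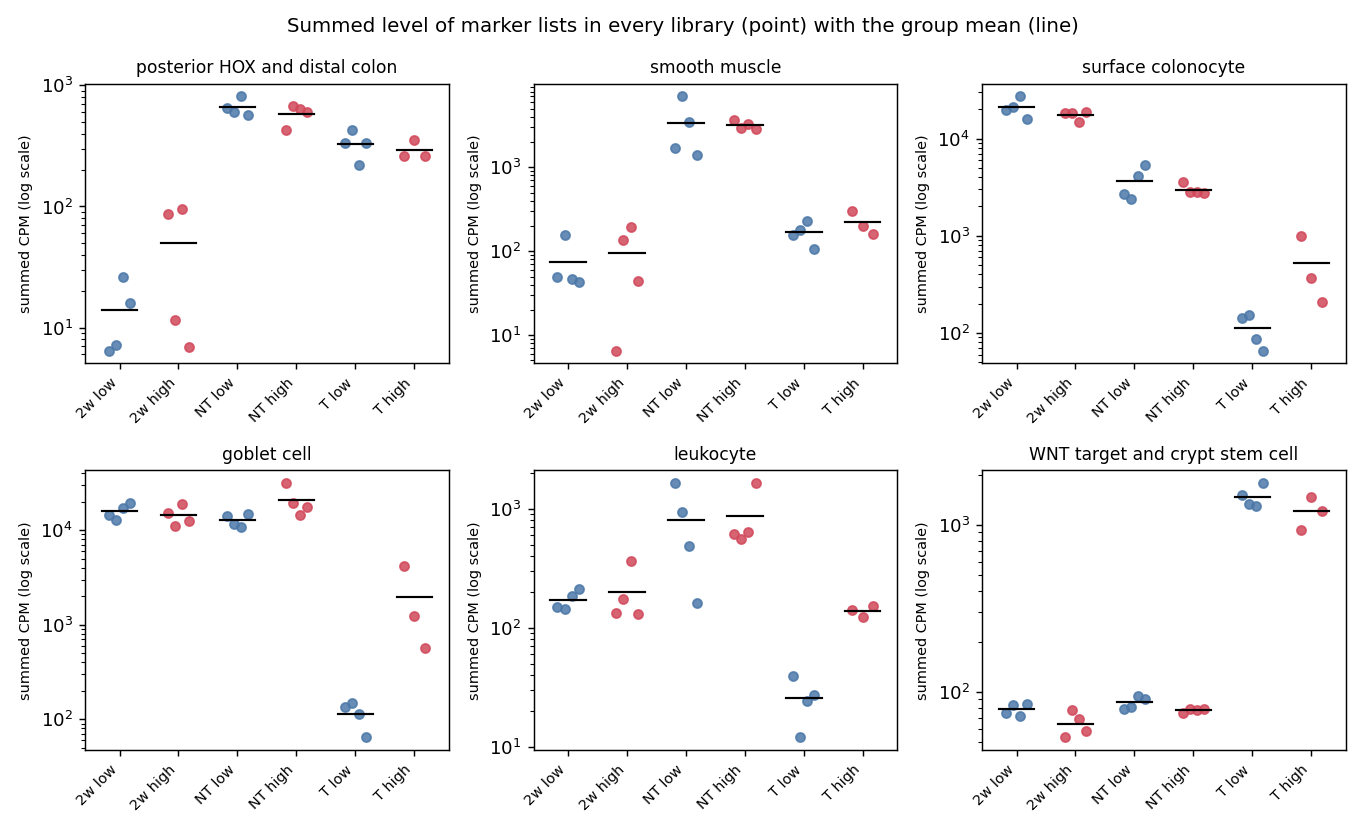
Summed level of 6 marker lists in CPM on a log scale (y axis) in each of 23 libraries (points) with the group mean (line), in BF BSHlow (blue) and BF BSHhigh (red) mice at 2 weeks (2w), in non-tumor (NT) and in tumor (T) tissues. Posterior HOX and smooth muscle genes are low at 2 weeks, and surface colonocyte, goblet cell and leukocyte genes are lower in BF BSHlow than in BF BSHhigh tumors, without overlap.

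In tumors the genes of the channel, of its hormone receptor and of the sodium pump were lower than in non-tumor tissues. All 9 genes fell in tumor against non-tumor tissues of BF BSHlow mice, where 17.6% of 15179 genes tested were called lower, and all 9 fell in BF BSHhigh mice, where 15% of 15654 were. In each of these 18 comparisons the highest tumor library was below the lowest non-tumor library, as it was for 27.7% of all genes tested in BF BSHlow and 29.4% in BF BSHhigh mice. The median log2 fold change of the 9 genes was -3.80 in BF BSHlow and -2.68 in BF BSHhigh mice, against 0.05 and 0.04 over all genes tested.

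*Scnn1g* was at 1.13, 0.616, 0.239 and 1.32 CPM in BF BSHlow tumors and at 4.03, 2.64 and 1.57 CPM in BF BSHhigh tumors. Against the non-tumor levels above, it fell with a log2 fold change of -6.85 (SE 0.51, adjusted p = 7.38e-06) in BF BSHlow and of -4.08 (SE 0.36, adjusted p = 7.28e-05) in BF BSHhigh mice, which is 115-fold and 16.9-fold lower. *Scnn1b* was at 7.51, 2.67, 2.29 and 12.8 CPM in BF BSHlow and at 6.88, 6.61 and 6.11 CPM in BF BSHhigh tumors, and fell with log2 fold changes of -3.07 (SE 0.54, adjusted p = 0.00105) and -2.85 (SE 0.19, adjusted p = 2.83e-05). *Scnn1a* was at 13.3, 10.1, 7.68 and 11.5 CPM and at 41.7, 29.4 and 16.8 CPM, and fell with values of -3.80 (SE 0.21, adjusted p = 2.17e-06) and -2.31 (SE 0.29, adjusted p = 0.000306). Each tumor library lay below each library of the 2-week colon in *Scnn1a*, while *Scnn1g* and *Scnn1b* overlapped the 2-week levels.

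Of the hormone arm, *Hsd11b2* had the largest difference in BF BSHlow mice. It was at 489, 417, 352 and 650 CPM in BF BSHlow non-tumor tissues and at 3.88, 6.98, 5.92 and 2.59 CPM in tumors, a log2 fold change of -6.65 (SE 0.37, adjusted p = 1.99e-06) or 101-fold lower. In BF BSHhigh mice it was at 762, 562, 423 and 445 CPM in non-tumor tissues and at 115, 25.3 and 12.9 CPM in tumors (-3.43, SE 0.73, adjusted p = 0.00424). Replicate a of the BF BSHhigh tumors held the most *Hsd11b2* of any tumor and was still below each non-tumor library.

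The receptor gene *Nr3c2* was at 163, 131, 176 and 159 CPM in BF BSHlow non-tumor tissues and at 8.20, 8.36, 8.16 and 4.89 CPM in tumors (-4.43, SE 0.19, adjusted p = 7.94e-07). *Nr3c2* in BF BSHhigh mice was at 128, 156, 130 and 136 CPM and at 29.0, 22.1 and 13.5 CPM (-2.68, SE 0.24, adjusted p = 7.98e-05). *Nr3c2* overlaps exons of *Gm10649* on the opposite strand, *Prss8* those of *Kat8* and *Atp1b1* those of *Nme7*. The library kit is stranded, but the strand setting of the counting is not given in the sources used here.

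*Sgk2* was at 28.8, 27.8, 40.0 and 59.4 CPM in BF BSHlow non-tumor tissues and at 0.638, 0.513, 0.811 and 0.538 CPM in tumors (-5.97, SE 0.34, adjusted p = 2.26e-06). *Sgk2* in BF BSHhigh mice was at 44.8, 27.5, 35.5 and 57.6 CPM and at 9.31, 5.32 and 2.77 CPM (-2.84, SE 0.42, adjusted p = 0.000669). *Sgk1* fell with a log2 fold change of -2.78 (SE 0.63, adjusted p = 0.004) in BF BSHlow and of -1.38 (SE 0.17, adjusted p = 0.000325) in BF BSHhigh mice, to levels of 34.4 to 67.2 and 29.8 to 44.9 CPM. Without replicate 4 of the BF BSHlow non-tumor tissues the first value was -1.83 (adjusted p = 0.00188). *Sgk2* was thus below 1 CPM in each BF BSHlow tumor, while *Sgk1* was at 29.8 CPM or more in every tumor of both groups.

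The genes of the pump and of the protease had the smallest differences. *Atp1b1* went from 1841, 1729, 1808 and 2327 CPM to 542, 593, 523 and 558 CPM in BF BSHlow mice (-1.82, SE 0.13, adjusted p = 6.99e-06). In BF BSHhigh mice it went from 2018, 1766, 1723 and 1704 CPM to 820, 788 and 695 CPM (-1.24, SE 0.12, adjusted p = 9.66e-05). *Prss8* was between 39.8 and 47.0 CPM in BF BSHlow non-tumor tissues and between 18.5 and 28.6 CPM in tumors (-1.01, SE 0.15, adjusted p = 0.000322), and in BF BSHhigh mice its log2 fold change was -1.08 (SE 0.18, adjusted p = 0.00112). *Prss8* lay at the fold limit in BF BSHlow mice, where it was between -0.998 and -0.938 without any one of 5 of the 8 libraries.

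**Figure D4:**
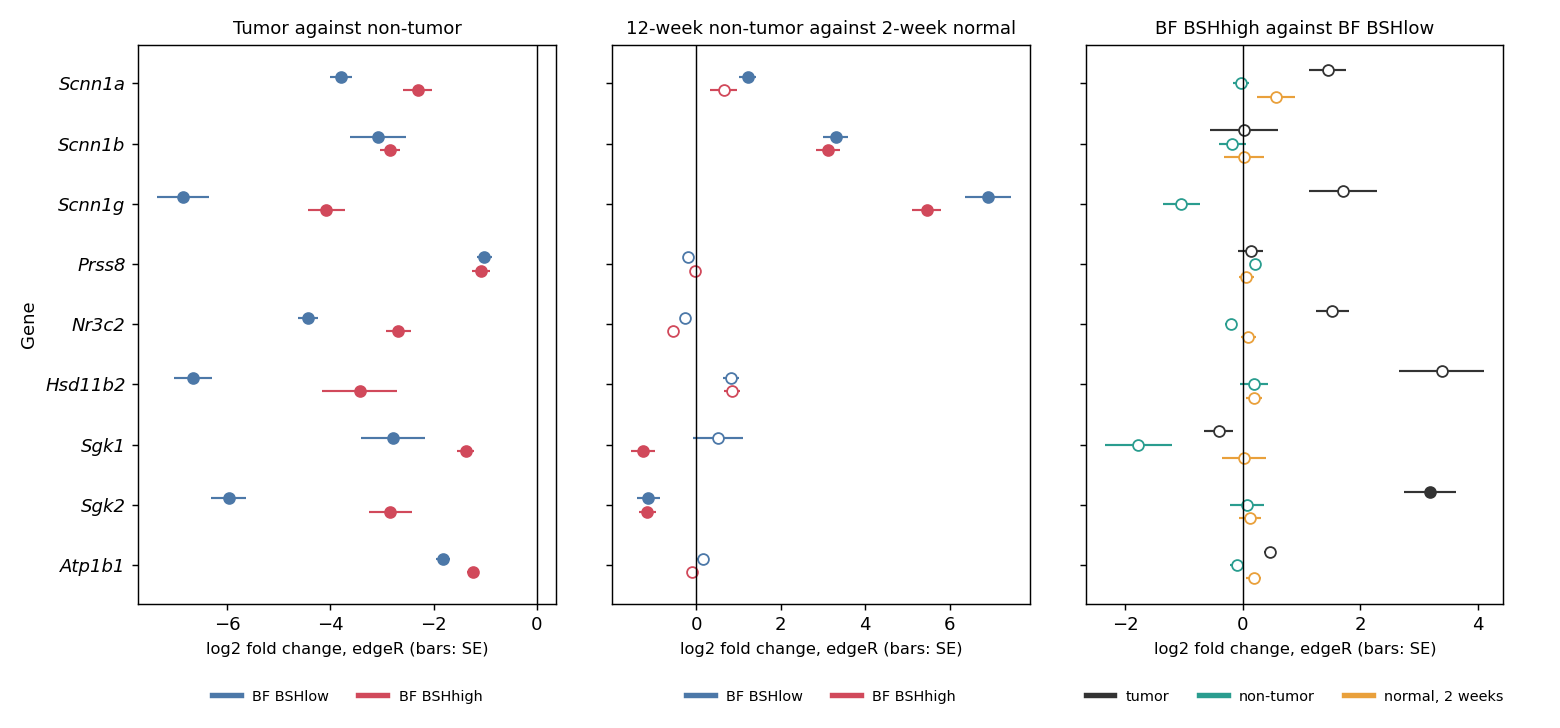
Log2 fold change (x axis, bars show the SE) of the 9 genes (y axis) in tumor against non-tumor tissues, in 12-week non-tumor against 2-week normal colon, and in BF BSHhigh against BF BSHlow mice, colored by group of mice or, in the third panel, by tissue, with filled points for called genes and open points for the rest. All points of the first panel are filled and below 0, from -6.85 to -1.01, and *Sgk2* at 3.19 in tumors is the only filled point of the third panel, from which *Scnn1g* at 2 weeks is missing because its counts were too low to test.

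Markers of cell types differed as well. Of the marker lists, 7 of 7 surface colonocyte genes fell in BF BSHlow and 5 of 7 in BF BSHhigh tumors, 5 of 5 goblet cell and 5 of 5 smooth muscle genes fell in both, and 6 of 6 WNT target and crypt stem cell genes rose in both. Of 4 squamous genes tested, 4 rose in BF BSHlow and 3 in BF BSHhigh tumors. Of 4 leukocyte genes, 3 fell in BF BSHlow tumors, and 2 fell and 1 rose in BF BSHhigh tumors. Their sum was 12.1 to 39.2 CPM in BF BSHlow and 123 to 154 CPM in BF BSHhigh tumors, against 163 to 1642 and 561 to 1644 CPM in non-tumor tissues. Posterior HOX genes summed to 219 to 431 and 259 to 354 CPM in tumors, below the 571 to 812 and 429 to 679 CPM of non-tumor tissues, and 2 of 4 tested fell in BF BSHlow and 0 of 5 in BF BSHhigh mice. Epithelial reference genes summed to 3926 to 6839 CPM in tumors, below the 7610 to 10080 CPM of non-tumor tissues. These 6 genes did not move together, as 1 rose and 2 fell in BF BSHlow tumors, and 1 rose and 0 fell in BF BSHhigh tumors. Scaled to those genes, *Scnn1g*, *Scnn1b*, *Scnn1a*, *Nr3c2*, *Hsd11b2*, *Sgk1* and *Sgk2* were still called in both groups of mice, with *Scnn1g* at -6.23 and -3.76 and *Sgk1* at -2.13 and -1.05. The difference of *Prss8* was then -0.50 (adjusted p = 0.0608) and -0.75 (adjusted p = 0.00162), and that of *Atp1b1* was -1.28 (adjusted p = 0.000325) and -0.89 (adjusted p = 0.000447). The part of these cell types and of position along the colon in the differences of the 9 genes was not tested. With that scaling 4467 genes were called higher and 1735 lower in BF BSHlow mice, against 2443 and 2672 with TMM, and 3615 and 1738 in BF BSHhigh mice, against 2284 and 2349, as the median of all genes moved to 0.57 and 0.39. With library size scaling the numbers higher and lower were 3635 and 2025 in BF BSHlow and 3387 and 1771 in BF BSHhigh mice.

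Between tumors of the 2 groups, which asks what the bile salt hydrolase of the bacteria changes in tumor tissue, *Sgk2* was higher in BF BSHhigh mice. It rose with a log2 fold change of 3.19 (SE 0.44, adjusted p = 0.0382), 9.10-fold, and was the only one of the 9 genes called, where 0.463% of 15325 genes tested were called higher. Its lowest BF BSHhigh tumor, at 2.77 CPM, was above the highest BF BSHlow tumor, at 0.811 CPM.

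Another 5 genes had BF BSHhigh tumors wholly above BF BSHlow tumors without being called. With *Sgk2* these were 6 of the 9, against 7.93% of the 15325 genes tested. The log2 fold change was 3.39 (SE 0.72, adjusted p = 0.0846) for *Hsd11b2*, 1.53 (SE 0.29, adjusted p = 0.0588) for *Nr3c2* and 1.44 (SE 0.31, adjusted p = 0.0846) for *Scnn1a*. It was 1.71 (SE 0.57, adjusted p = 0.257) for *Scnn1g* and 0.46 (SE 0.10, adjusted p = 0.0877) for *Atp1b1*. Replicate a was the highest and replicate c the lowest of the BF BSHhigh tumors in each of these and in *Sgk2*.

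The remaining 3 overlapped. *Scnn1b* had a log2 fold change of 0.03 (SE 0.58, adjusted p = 0.989), *Prss8* of 0.14 (SE 0.21, adjusted p = 0.839) and *Sgk1* of -0.41 (SE 0.25, adjusted p = 0.557). The spread of *Scnn1b* between BF BSHlow tumors, from 2.29 to 12.8 CPM, was wider than the whole range of BF BSHhigh tumors.

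The call of *Sgk2* held with DESeq2 (adjusted p = 8.91e-08) and was lost with limma-voom (adjusted p = 0.103). It was also lost without any one of replicates 1 to 4 of the BF BSHlow tumors (adjusted p = 0.0817, 0.112, 0.0825 and 0.109) or without replicate a or b of the BF BSHhigh tumors (0.085 and 0.12), while its log2 fold change stayed between 2.66 and 3.52. Without replicate c, *Sgk2*, *Nr3c2*, *Hsd11b2* and *Scnn1a* were called (adjusted p = 0.0111, 0.0237, 0.0292 and 0.0262). Calls over all genes tested moved in the same way, so these losses and gains are not particular to the pathway. With every tumor library kept, 71 genes were called higher. Leaving out BF BSHlow tumor 1, 2, 3 or 4 gave 0, 3, 0 and 0 such genes. Leaving out BF BSHhigh tumor a gave 6, tumor b gave 1 and tumor c gave 234.

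Markers of differentiated epithelium and of leukocytes were also higher in the BF BSHhigh tumors. The 7 surface colonocyte genes summed to 986 CPM in replicate a, 365 in b and 206 in c, against 143, 153, 86.0 and 65.8 CPM in BF BSHlow tumors, and the 5 goblet cell genes to 4134, 1246 and 573 against 134, 149, 112 and 64.2 CPM. The 4 leukocyte genes summed to 141, 123 and 154 against 39.2, 12.1, 24.4 and 27.4 CPM. The 5 squamous genes went the other way, with sums of 46.1, 32.3 and 45.4 CPM in BF BSHhigh against 71.4, 197, 184 and 51.5 CPM in BF BSHlow tumors, without overlap, and 0 of 4 tested were called (median log2 fold change -1.46). Called higher were 2 of 7 surface colonocyte, 2 of 5 goblet cell and 1 of 4 leukocyte genes, and the order of replicates a, b and c in the surface colonocyte and goblet cell sums is that of *Sgk2* and *Hsd11b2*. The part of these cells in the difference of *Sgk2* was not tested, and scaled to the epithelial reference genes its log2 fold change was 2.998 (adjusted p = 0.00652).

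The difference between the groups of mice was larger in tumors than in non-tumor tissues for 2 of the 9 genes. In the interaction term over the 15 libraries of 12 weeks, the log2 difference was 3.12 (SE 0.56, adjusted p = 0.0172) for *Sgk2* and 1.74 (SE 0.30, adjusted p = 0.0165) for *Nr3c2*, where 0.972% of 16455 genes were called higher. It was 2.77 (adjusted p = 0.0551) for *Scnn1g*, 1.49 (adjusted p = 0.0631) for *Scnn1a*, 3.21 (adjusted p = 0.0683) for *Hsd11b2*, 0.58 (adjusted p = 0.156) for *Atp1b1* and 1.40 (adjusted p = 0.567) for *Sgk1*, none of them called. *Scnn1b* had 0.23 (SE 0.62, adjusted p = 0.971) and *Prss8* -0.07 (SE 0.23, adjusted p = 0.979). Both calls held without each single library, with adjusted p of at most 0.0463 for *Sgk2* and 0.0424 for *Nr3c2*, and were lost with limma-voom (0.302 and 0.0988). Limma-voom called 0 of all 16455 genes tested in this term. Of the surface colonocyte genes 5 of 7, and of the goblet cell genes 3 of 5, were called higher in the same term, and their part in it was not tested.

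In non-tumor tissues 0 of the 9 genes were called between BF BSHhigh and BF BSHlow mice, as were 0.0% of 14934 genes tested, of which 1378 had an unadjusted p under 0.05. With DESeq2 the number among the 9 was also 0. The largest differences were lower levels in BF BSHhigh mice. *Sgk1*, at the levels given above, had a log2 fold change of -1.77 (SE 0.57, adjusted p = 0.411), and *Scnn1g* of -1.04 (SE 0.31, adjusted p = 0.407). Without replicate 4 of the BF BSHlow tissues *Sgk1* differed by -0.85 (adjusted p = 0.364). Both overlapped between the groups, as 94.7 CPM of *Sgk1* in replicate 1 of BF BSHlow lay within the BF BSHhigh range.

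Replicate 4 of the BF BSHlow non-tumor tissues, with the 760 CPM of *Sgk1*, also held the most *Atp1b1*, *Scnn1a*, *Sgk2* and *Hsd11b2* of its group and the most surface colonocyte signal, at 5385 CPM against 2415 to 4070 in the rest. It held the least leukocyte signal, at 163 CPM against 484 to 1642. Its level of *Fkbp5*, another gene induced by corticosteroids, was 283 CPM against 122, 178 and 201 in the rest, while *Tsc22d3* was 71.6 against 57.5, 98.9 and 71.6 CPM. *Per1* was 54.4 against 44.1, 49.9 and 61.3 CPM, and *Zbtb16* was 19.2 against 12.9, 21.5 and 16.2 CPM. Of these genes induced by corticosteroids, *Tsc22d3*, *Per1* and *Zbtb16* lay within the range of the rest. The other 7 genes of the pathway had log2 fold changes between -0.20 and 0.22 in non-tumor tissues, none with an adjusted p under 0.541.

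At 2 weeks 0 of the 8 genes tested were called, where 0.00727% of 13753 genes were called higher and 935 had an unadjusted p under 0.05. *Scnn1g* was below the filter on low counts. The largest difference was that of *Scnn1a* (0.57, SE 0.33, adjusted p = 0.807), and the others were between 0.03 and 0.20. None of the 8 differed without overlap between the groups, as 3.64% of all genes tested did. The term that compares the effect of BF BSHhigh at 12 weeks in non-tumor tissues with that at 2 weeks was called for 0 of the 9 genes, as for 0.0% of 15533 genes tested, of which 1135 had an unadjusted p under 0.05, and DESeq2 also called 0 of the 9.

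Of the wider pathway, a list of 41 other genes, 19 fell and 4 rose in tumors of BF BSHlow mice among 40 tested, and 16 fell and 3 rose in BF BSHhigh mice. Over all genes tested, 17.6% were called lower and 16.1% higher in BF BSHlow mice, and 15% lower and 14.6% higher in BF BSHhigh mice. Of the corticosteroid-induced genes, 7 of 7 fell in BF BSHlow and 6 of 7 in BF BSHhigh mice, with *Zbtb16*, a zinc finger transcription factor gene, at -3.73 (adjusted p = 0.000318) and -3.21 (adjusted p = 0.000118). Among other ion transporters, the proton-potassium pump gene *Atp12a* fell (-8.64, adjusted p = 1.79e-05, and -2.23, adjusted p = 0.0117). The potassium channel gene *Kcnma1* (-4.75 and -3.24) and the sodium-proton exchanger gene *Slc9a2* (-4.35 and -2.94) fell in both groups too. The kinases of the pathway, 7 genes such as *Wnk1* and *Pdpk1*, had 0 called in either group.

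The genes of the list that rose in tumors of both groups were *Serpine2*, a secreted inhibitor of serine proteases (2.61 and 2.92), and *Fxyd3* (1.77 and 1.28) and *Fxyd5* (1.16 and 1.22), which encode regulators of the sodium pump. The genes of the ubiquitin ligase NEDD4-2 (*Nedd4l*, -1.16 and -1.20) and of the glucocorticoid receptor (*Nr3c1*, -1.72 and -1.44) fell in both groups of mice. *Slc9a3*, the gene of the exchanger of electroneutral sodium uptake, rose in BF BSHlow tumors (4.06) and had 2.45 in BF BSHhigh tumors without a call. Its tumor levels overlapped, at 265.8 to 342.6 CPM in BF BSHlow and 276.5 to 373 CPM in BF BSHhigh mice. Among the BF BSHhigh non-tumor libraries, replicate 1 held 199 CPM, against 8.28, 9.52 and 19.2 CPM in the rest.

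Between 2 and 12 weeks, 10 of 40 genes of the wider list rose and 5 fell in each group of mice, beside the 15.1% and 15.9% of all genes called higher and the 7.59% and 7.34% called lower. The largest rises were those of *Fxyd4*, a sodium pump regulator (9.30 and 2.78), *Zbtb16* (6.11 and 4.37), *Atp12a* (7.76 and 2.63) and the pump subunit gene *Atp1b2* (3.29 and 2.50). *Slc9a3* (-3.51 and -2.76), *Slc9a2* (-1.59 and -2.10), *Cnksr3* (-1.10 and -1.04) and *Nr3c1* (-1.04 and -1.09) fell in both. The exchanger gene *Slc9a3* thus fell in the same comparisons in which *Scnn1b* and *Scnn1g* rose. Replicate 1 of the BF BSHhigh non-tumor tissues stood apart, with 199 CPM of *Slc9a3* against 8.28 to 19.2 CPM in the rest. The 2-week BF BSHhigh libraries held 360 to 456 CPM.

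In BF BSHhigh against BF BSHlow mice, *Atp12a* was the only one of 40 genes tested of the wider list called in tumors (5.92, SE 0.84, adjusted p = 0.0406), where 0.463% of all genes were called higher. It was at 232, 129 and 29.4 CPM in BF BSHhigh and at 2.40, 0.975, 4.48 and 0.587 CPM in BF BSHlow tumors, without overlap, and its interaction with tissue was called as well (6.396, SE 0.91, adjusted p = 0.00629). In non-tumor tissues 0 of 41 genes were called, as were 0 of 37 at 2 weeks. *Zbtb16* was lower in each BF BSHhigh non-tumor library (6.88, 7.35, 5.70 and 6.44 CPM) than in each BF BSHlow one (12.9, 21.5, 16.2 and 19.2 CPM), without a call (-1.41, SE 0.18, adjusted p = 0.181). Of the 7 corticosteroid-induced genes, 3 did not overlap between these groups, against 5.38% of all 14934 genes tested, and the median of the 7 was -0.47, against -0.01 over all genes tested. At 2 weeks *Atp12a* was at 266, 38.5, 84.4 and 5.77 CPM in BF BSHhigh and at 0.910, 3.92, 4.83 and 5.42 CPM in BF BSHlow libraries (4.71, adjusted p = 0.512). These groups were apart only by 5.77 against 5.42 CPM, and 3.64% of all 13753 genes tested did not overlap. Replicates 1 and 3, its highest, also held the most posterior HOX signal of the BF BSHhigh libraries (87.5 and 94.5 CPM, against 11.6 and 6.97 CPM). The part of position along the colon in this difference was not tested.

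Within groups, the genes most like each of the 3 channel subunits were not the same. Over the 16 normal and non-tumor libraries, with each of 14051 genes centred on its group means, *Scnn1a* was most like *Slc45a3*, *St3gal3*, *Litaf*, *Hottip* and *Endod1*, with Pearson r between 0.924 and 0.955. *Scnn1b* was most like *Pex5*, *Pip5k1b*, *Rab11b*, *Abo* and *Slc8b1* (r between 0.831 and 0.891), and *Scnn1g* was most like *Tbl3*, *Tti2*, *Zfp251*, *AI987944* and *Pspc1* (0.815 to 0.855). The points share libraries and their depth, and the values are a description of the highest r among many genes. *Scnn1g* held only 2 to 25 counts in each 2-week library, which limits the precision of every r that involves it. Without the 2 libraries farthest from the median of the subunit, these r were between 0.880 and 0.947 for *Scnn1a*, 0.774 and 0.874 for *Scnn1b* and 0.611 and 0.793 for *Scnn1g*. Between the subunits themselves r was 0.742 for *Scnn1a* with *Scnn1b*, 0.575 for *Scnn1b* with *Scnn1g* and 0.151 for *Scnn1a* with *Scnn1g* (0.597, 0.614 and 0.416 without the 2 libraries farthest in the first gene of each pair, and 0.620, 0.376 and 0.0925 without the 2 farthest in the second).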

How the data were processed

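Expected counts per gene were deposited by the authors, whose methods name Cutadapt for trimming, STAR for alignment against mm10 and RSEM for the counts. The labels name a stranded total RNA kit and the methods a stranded mRNA kit. From these values, 55449 genes in 23 libraries with totals between 12401388 and 17903008 were used, and 1 row without a gene name and 1 row with a text cell were left out. Of the values, 4.24% were not whole, none of them in the 9 genes described, and all were rounded. The depth limits the precision of low genes such as *Scnn1g*, with 2 to 25 counts per library at 2 weeks.

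Groups followed the labels. The BF BSHhigh tumor columns were recognized as a group through a supplementary table of the study, since their headers repeat names of BF BSHlow tumors. Replicate pairs differed by more than sampling noise (chi-square per degree of freedom 16.6 to 126 in 33 pairs), so none was counted as 1 sample.

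Groups were compared in edgeR 4.0.16 (R 4.3.3) by glmQLFTest, its quasi-likelihood test, after filterByExpr and TMM scaling. Only the groups compared were in a fit, its prior count was left at the default, and Benjamini-Hochberg adjustment was over all genes tested. A prior count of 2 was used only for log2 CPM values. The difference of differences was an interaction term. The code was tested on simulated data. Alternatives were DESeq2 1.42.0, limma-voom (limma 3.58.1), RLE and library size scaling, scaling to epithelial reference genes, no filter on low counts, all 23 libraries in the fit, blocking on the replicate number and omitting single libraries. Gene positions are from GENCODE M21 (GRCm38).

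The 9 genes and all gene lists were chosen with earlier results of these data known. All 9 genes are named in each comparison, and of the wider pathway list those called in the same direction in both groups of mice with the largest mean change are named, up to 4 in each direction. The likeness of genes was Pearson's r of log2 CPM centred on group means, over genes with a mean of at least 1 CPM. *Hoxb13*, *Hoxd12*, *Fkbp5*, *Tsc22d3*, *Per1*, *Nedd4l*, *Nr3c1* and *Slc9a3* in tumors, and *Zbtb16* and *Atp12a* between groups of mice or single libraries, were named after their values were seen.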

Additional observations from a re-analysis of the deposited data

Results flagged for a closer look

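The difference between BF BSHhigh and BF BSHlow mice was larger in tumors than in non-tumor tissues for *Sgk2* (log2 difference 3.12, adjusted p = 0.0172) and *Nr3c2* (1.74, adjusted p = 0.0165) by the interaction term of edgeR. Among 45 groups of 4 libraries tested for a library apart from the rest, 2 held one, where chance gives about 1 in 20. *Nr3c2* was at 4.89 CPM in replicate 4 of the BF BSHlow tumors, with a gap to the next library that takes up 0.941 of the range of the group. *Prss8* was at 66.3 CPM in replicate 3 of the 2-week BF BSHhigh colon (0.949 of the range), the library with the most posterior HOX signal of the 2-week colon.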

How the results depend on the processing

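Of the 9 genes, 1 was called between tumors of BF BSHhigh and BF BSHlow mice, against 4 with DESeq2, 0 with limma-voom, 3 with the epithelial scaling, 4 without the filter and 4 with all 23 libraries in the fit, and 0 to 4 with 1 library left out. Over all genes tested, 71 of 15325 were called higher between these tumors. The numbers were 489 with DESeq2, 40 with limma-voom and 234 with the epithelial scaling. They were 308 of 25266 without the filter, 566 of 16754 with all 23 libraries and 0 to 234 with 1 library left out. The interaction with tissue called 2, against 5 with DESeq2, 0 with limma-voom, 5 without the filter and 4 with all 23 libraries, and 2 to 5 with 1 library left out. Over all genes tested it called 160 higher, against 378 with DESeq2, 0 with limma-voom, 194 without the filter and 260 with all 23 libraries. The cause was not tested. Without replicate a of the BF BSHhigh tumors, *Hsd11b2* differed by 1.97 between the tumors. In tumor against non-tumor tissues 8 or 9 genes were called in BF BSHlow and 7 to 9 in BF BSHhigh mice. In non-tumor tissues, at 2 weeks and for the interaction with time 0 were called in every alternative run.

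Of the alternative values of single genes, 1244 kept their direction and side of the adjusted p threshold, 36 newly passed it, 14 no longer passed it and 67 changed direction, none of the last for a called gene. Of those 67, *Prss8* (adjusted p = 0.00422) and *Atp1b1* (adjusted p = 0.0399) between 2 and 12 weeks in BF BSHhigh mice passed the threshold in the new direction, both with the epithelial scaling. With the epithelial scaling these were *Scnn1b* (-0.33) and *Prss8* (-0.0286) between tumors, *Scnn1b* (-0.0985), *Sgk1* (-0.0549) and *Prss8* (-0.0487) at 2 weeks, *Nr3c2* (0.0743) and *Prss8* (0.15) in BF BSHlow and *Prss8* (0.42) and *Atp1b1* (0.31) in BF BSHhigh mice between 2 and 12 weeks, *Scnn1b* (-0.15) in the interaction with tissue and *Sgk2* (0.0591) in that with time. With library size scaling they were *Scnn1b* (-0.008) between tumors, *Scnn1b* (-0.0568) and *Sgk1* (-0.0556) at 2 weeks, *Prss8* (0.0438 and 0.252) and *Atp1b1* (0.17) between 2 and 12 weeks and *Sgk2* (0.0284) in the interaction with time. *Scnn1b* at 2 weeks was -0.0263 with limma-voom, and *Hsd11b2* in the interaction with time was -0.0051 without the filter and -0.0037 with all libraries.

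With 1 library left out, these values changed direction within the following ranges. Between tumors they were -0.25 to 0.63 for *Scnn1b* and -0.0367 to 0.322 for *Prss8*. In non-tumor tissues they were -0.12 to 0.10 for *Scnn1a*, -0.357 to 0.0354 for *Scnn1b*, -0.12 to 0.35 for *Sgk2*, -0.0041 to 0.38 for *Hsd11b2* and -0.16 to 0.0025 for *Atp1b1*. At 2 weeks they were -0.25 to 0.21 for *Scnn1b*, -0.29 to 0.38 for *Sgk1* and -0.0588 to 0.109 for *Prss8*. Between 2 and 12 weeks they were -0.41 to 0.86 for *Sgk1* in BF BSHlow and -0.115 to 0.0944 for *Prss8* in BF BSHhigh mice. In the interaction with tissue they were -0.0583 to 0.823 for *Scnn1b* and -0.23 to 0.12 for *Prss8*, and in that with time -0.37 to 0.10 for *Scnn1b*, -0.24 to 0.24 for *Sgk2* and -0.19 to 0.20 for *Hsd11b2*.

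Between libraries with the same number, correlations of deviations ran from -0.22 to 0.32, with at least 1 pair at or under 0.1 in each comparison. With so few libraries per group, these values cannot decide whether the number marks a shared animal or day, and the labels do not say so. The replicate block left the number of genes called at 0, 0, 9, 4 and 4 in the 5 comparisons where it could be fitted, and moved *Scnn1b* at 2 weeks to -0.005. No paired analysis was possible where BF BSHhigh tumors enter, because their columns carry no number.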
